A study of Oryctolagus cuniculus with 6 samples.

Results

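The genes described here are the ligands of the epidermal growth factor (EGF) family and the ERBB receptors they act on, in the conjunctiva of rabbits with and without dry eye disease (DED). They were chosen by name: 10 genes were listed (EGF, AREG, EREG, HBEGF, TGFA, BTC, NRG1, EGFR, ERBB2 and ERBB3), and a gene was taken as measured when a probe set carried its symbol alone. By this rule 9 of the 10 were measured among 15587 genes and 23364 probe sets on the array, 6 ligands and 3 receptors, each by 1 probe set. NRG1, a neuregulin that binds ERBB3 and ERBB4, was not analysed here.

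Full-thickness conjunctiva with Tenon's capsule was compared between naive rabbits, labelled healthy, and rabbits with DED, on 3 arrays in each group. All were adult male Dutch Belted rabbits whose nictitating membranes had been removed. In the DED group concanavalin A (ConA), a plant lectin that activates T cells, was given into the periorbital lacrimal glands on days 1, 8 and 14, and tissue was taken on day 18. The sources used here do not mention a sham injection of the naive rabbits, so ConA and the injection itself cannot be told apart. Each array held pooled RNA of several animals.

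EGF family ligands are made as precursors anchored in the cell membrane and are released by proteases, chiefly ADAM17 and ADAM10. They bind EGFR, ERBB3 or ERBB4 on the same or a nearby cell, the receptors pair, often with ERBB2, which has no known ligand of its own, and the pair signals through RAS and ERK and through PI3 kinase. At the ocular surface EGF reaches the epithelium with the tears, and the family is known for driving the growth and repair of corneal and conjunctival epithelium and the growth and secretion of goblet cells.

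The deposited values are on a log2 scale, so a difference of 1 is a 2-fold change, and the brightness of a probe set does not allow the level of 1 gene to be set against that of another. Differences are given as DED minus naive with their standard error (SE), and p-values come from limma, adjusted for all probe sets by the Benjamini-Hochberg method with a threshold of 0.05. With 3 arrays against 3 the smallest two-sided p of an exact permutation test is 0.1, and the number of arrays limits the precision. The array medians lay between 6.18 and 6.20, and arrays of the same group correlated at 0.9938 to 0.9947 across probe sets. Of the genes that define conjunctival epithelium, KRT5 lay between 10.74 and 11.50, PAX6 between 10.64 and 10.84 and the goblet cell mucin MUC5AC between 9.85 and 10.13 over the 6 arrays, and the values carry no detection call that would mark a gene as present or absent.

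None of the 9 members passed the adjusted threshold in DED, in either direction. Over all probe sets 4.41% passed it as higher and 2.69% as lower. At an unadjusted p under 0.05 in limma 3 members, TGFA, EGFR and ERBB2, were lower and 0 were higher, against 10.9% and 11.0% of all probe sets. The same 3 genes were the only members without overlap between the naive and DED arrays, all lower in DED, where 14.5% of all probe sets were lower and 13.4% higher without overlap. The median difference of the members was -0.07, against -0.01 over all probe sets, and the median absolute difference was 0.13 against 0.11.

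**Figure D1:**
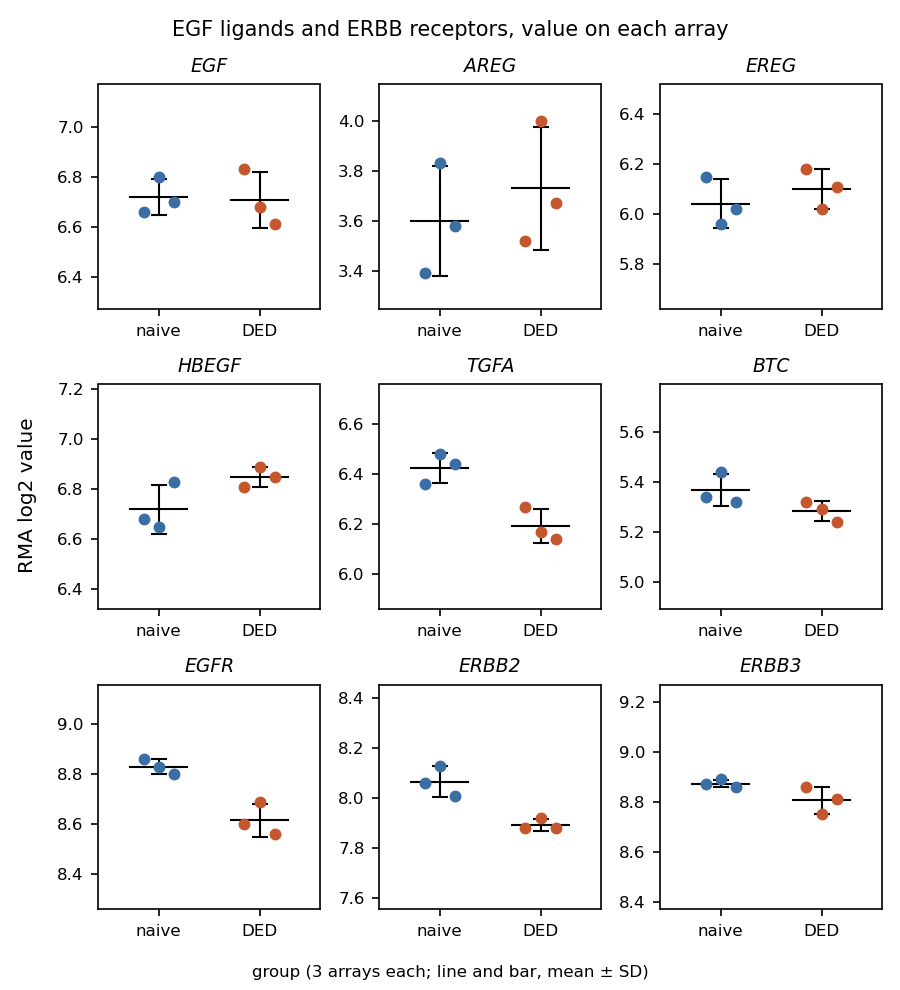
RMA log2 value of the 9 measured members on each of the 3 naive (blue) and 3 DED (orange) arrays, with the mean and SD of each group in black. Every panel spans the same number of log2 units, and the groups separate in TGFA, EGFR and ERBB2 only.

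Among the ligands, TGFA, transforming growth factor alpha, a ligand of EGFR made by epithelial cells, read 6.36, 6.48 and 6.44 on the naive arrays and 6.27, 6.17 and 6.14 on the DED arrays. Every DED array lay below every naive array. The difference was -0.23 (SE 0.07; limma, adjusted p = 0.0935), which is 1.18-fold lower with a 95% interval of 1.05- to 1.31-fold lower, and it was the largest in absolute size among the members. Larger absolute differences were found in 21.0% of all probe sets.

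HBEGF, the heparin-binding ligand of EGFR and ERBB4 that takes part in wound closure, read 6.68, 6.65 and 6.83 on the naive and 6.81, 6.89 and 6.85 on the DED arrays. Naive replicate 3 lay within the range of the DED arrays. The difference was 0.13 (SE 0.07; limma, adjusted p = 0.337), and its interval ran from 1.03-fold lower to 1.23-fold higher.

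EGF itself read 6.66, 6.80 and 6.70 in naive and 6.83, 6.68 and 6.61 in DED conjunctiva. The DED arrays enclosed the naive ones on both sides. With a difference of -0.01 (SE 0.08; limma, adjusted p = 0.946), the interval reached from 1.15-fold lower to 1.13-fold higher, and the sign of so small a value turned when naive replicate 2 or DED replicate 3 was left out. EGF is also a product of the distal nephron, and genes that mark that part of the kidney moved on the same arrays. Of 15 measured genes of the thick ascending limb and distal tubule 4 were higher and 0 lower in DED, against 4.41% and 2.69% of all probe sets. The mean log2 value of the list was 6.13 to 6.16 on the naive and 6.40 to 6.43 on the DED arrays. At an unadjusted p under 0.05 in limma 6 were higher and 2 lower, against 11.0% and 10.9% of all probe sets. The 2 lower were PPP1R1A (-0.33) and CLDN10 (-0.24), both without overlap of the groups. UMOD, which encodes uromodulin, lay at 10.69 to 10.72 in naive and 11.54 to 11.58 in DED conjunctiva (limma, adjusted p = 4.37e-04), and the salt transporter SLC12A1 at 5.77 to 5.85 and 6.85 to 6.90 (adjusted p = 2.84e-04). Their part in the EGF values was not tested.

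AREG, amphiregulin, a ligand of EGFR that T cells and epithelium can make, had the widest spread of the members. It read 3.39, 3.83 and 3.58 on the naive and 3.52, 4.00 and 3.67 on the DED arrays, and the groups overlapped over most of their range. The difference was 0.13 (SE 0.16; limma, adjusted p = 0.691). AREG was the only member among the 30% dimmest probe sets of the table, and its interval, from 1.19-fold lower to 1.42-fold higher, was the widest of the members, so that a change larger than 1.42-fold lay outside the interval of every member.

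EREG, epiregulin, which binds EGFR and ERBB4, read 6.15, 5.96 and 6.02 in naive and 6.18, 6.02 and 6.11 in DED conjunctiva. Its difference of 0.06 (SE 0.08; limma, adjusted p = 0.709) was smaller than the spread between arrays of the same group. BTC, betacellulin, another ligand of both receptors, read 5.34, 5.44 and 5.32 on the naive and 5.32, 5.29 and 5.24 on the DED arrays. The highest DED value equalled the lowest naive value, and the difference was -0.08 (SE 0.06; limma, adjusted p = 0.489).

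EPGN, epigen, a further EGFR ligand of epithelia outside the list of 10, was the only one of the 11 measured family genes to pass the test. NRG2, NRG3 and NRG4, further neuregulins, were not analysed here. It read 9.16, 9.09 and 9.21 on the naive and 8.88, 8.88 and 8.89 on the DED arrays. The DED arrays lay closely together below all naive arrays. EPGN fell by 0.27 on the log2 scale (SE 0.06; limma, adjusted p = 0.0425), which is 1.21-fold, with an interval of 1.10- to 1.33-fold lower. Without any 1 of the 6 arrays its adjusted p was 0.0745 to 0.125, so the call rested on the full set of arrays.

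All 3 measured receptors had lower means in DED, and none passed the adjusted threshold. EGFR, the receptor of EGF, TGFA, AREG and EPGN, read 8.86, 8.83 and 8.80 in naive and 8.60, 8.69 and 8.56 in DED conjunctiva. The highest DED value stood below the lowest naive value. The difference was -0.21 (SE 0.06; limma, adjusted p = 0.0969), or 1.16-fold lower with an interval of 1.05- to 1.28-fold.

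ERBB2, the partner receptor, read 8.06, 8.13 and 8.01 on the naive and 7.88, 7.92 and 7.88 on the DED arrays, again without overlap. Its difference was -0.17 (SE 0.06; limma, adjusted p = 0.148), 1.13-fold lower with an interval of 1.02- to 1.24-fold.

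Epithelium carries both receptors, and some of its markers rose on the same arrays, while none passed the adjusted threshold as lower. In bulk tissue, fewer cells of a type and less RNA per cell cannot be told apart. Of 10 measured epithelial markers 3 were higher and 0 lower in DED, and the mean log2 value of the list was 9.90 to 9.91 on the naive and 10.02 to 10.05 on the DED arrays. The 3 were the desmosomal cadherin DSG3 (difference 0.77) and the keratins KRT5 (0.59) and KRT4 (0.43). EPCAM, a membrane protein of epithelial cells, lay at 9.29 to 9.38 in naive and 9.08 to 9.14 in DED conjunctiva and did not pass (limma, adjusted p = 0.0971). At an unadjusted p under 0.05 in limma 3 epithelial markers were lower, KLF5 (-0.24), EPCAM (-0.20) and PAX6 (-0.15), and 3 were higher. Over all probe sets these shares were 10.9% and 11.0%. Without overlap of the groups 4 epithelial markers were lower and 5 higher, against 14.5% and 13.4% of all probe sets. Of 9 goblet cell markers 2 were higher, FCGBP (0.68) and AGR3 (0.59), and 2 lower, the secretory regulator CREB3L1 (-0.37) and MUC5AC (-0.24; adjusted p = 0.0477). With single arrays left out, the adjusted p reached 0.0620 for KRT4, 0.0723 for AGR3, 0.0719 for CREB3L1 and 0.141 for MUC5AC. Their part in the receptor values was not tested.

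ERBB3, which binds neuregulins and has little kinase activity of its own, read 8.87, 8.89 and 8.86 in naive and 8.86, 8.75 and 8.81 in DED conjunctiva. DED replicate 1 equalled naive replicate 3, and the difference was -0.07 (SE 0.06; limma, adjusted p = 0.561), with an interval from 1.15-fold lower to 1.05-fold higher. Schwann cells and pigment cells are further sites of ERBB3. Of 11 melanocyte markers 4 were lower, the melanin enzymes DCT (-1.63), TYRP1 (-1.42) and TYR (-0.59) and the exchanger SLC24A5 (-0.80), and 1 was higher, EDNRB (0.44; adjusted p up to 0.0518 with an array left out), with a list mean of 6.35 to 6.43 in naive and 5.96 to 6.04 in DED conjunctiva. Among 9 Schwann cell markers 0 passed in either direction, with 1 higher and 1 lower at an unadjusted p under 0.05 in limma. The higher was L1CAM, among the 30% dimmest probe sets, with the largest difference of the list, 0.34 (adjusted p = 0.130). The lower was PMP22 at -0.22 (adjusted p = 0.0879), and the list median was -0.06. Without overlap of the groups 1 was higher and 3 were lower, against 13.4% and 14.5% of all probe sets. The part of these cells in the ERBB3 values was not tested.

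ERBB4, the remaining receptor of the family and not on the list of 10, read 5.42, 4.76 and 5.02 on the naive and 4.87, 5.33 and 4.99 on the DED arrays. Both groups covered nearly the same range. Its difference was 0.00 (SE 0.19; limma, adjusted p = 0.995), and with an interval from 1.38-fold lower to 1.37-fold higher a moderate change in either direction was not detectable.

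**Figure D2:**
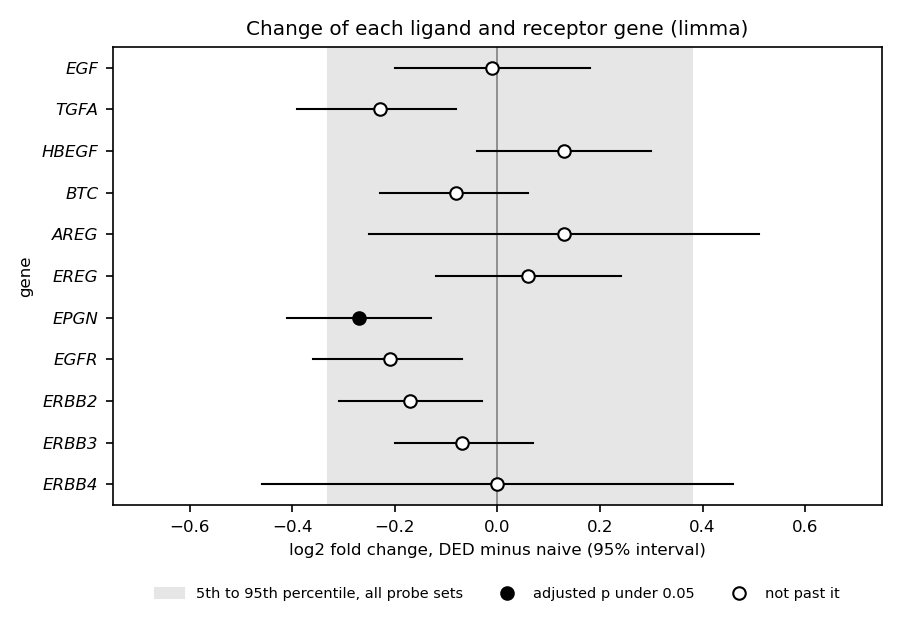
Log2 fold change (DED minus naive, x axis) of the 9 members, EPGN and ERBB4 with 95% intervals from limma; filled points passed an adjusted p under 0.05. The grey band covers the 5th to 95th percentile of all probe sets, -0.33 to 0.38, and every point lies within it.

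EGFR, ERBB2 and TGFA passed under some of the alternative settings. With a variance prior that follows the intensity, EGFR and ERBB2 passed (limma, adjusted p = 0.0103 and 0.0492) and TGFA did not (adjusted p = 0.0964), while 5.70% of all probe sets passed as lower. Without the 30% dimmest probe sets, TGFA and EGFR passed (adjusted p = 0.0422 and 0.0434) and ERBB2 did not (adjusted p = 0.0752), while 6.68% passed as lower. Over all alternatives the adjusted p ran from 0.0422 to 0.234 for TGFA, 0.0103 to 0.228 for EGFR and 0.0492 to 0.328 for ERBB2. The study's methods tabulate genes by a 1.5-fold cut and take a p under 0.05 as significant. Both cuts were applied to a one-way analysis of variance computed here, with an unadjusted p. By them 0 members were called and 2.92% of all probe sets were. The paper's own p-values come from other software, and its full count of differentially expressed transcripts is a larger share than this. The fold cut decided the absence of a call for TGFA, EGFR and ERBB2. Their unadjusted p in the one-way analysis of variance was 0.0115, 0.00718 and 0.00965.

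**Figure D3:**
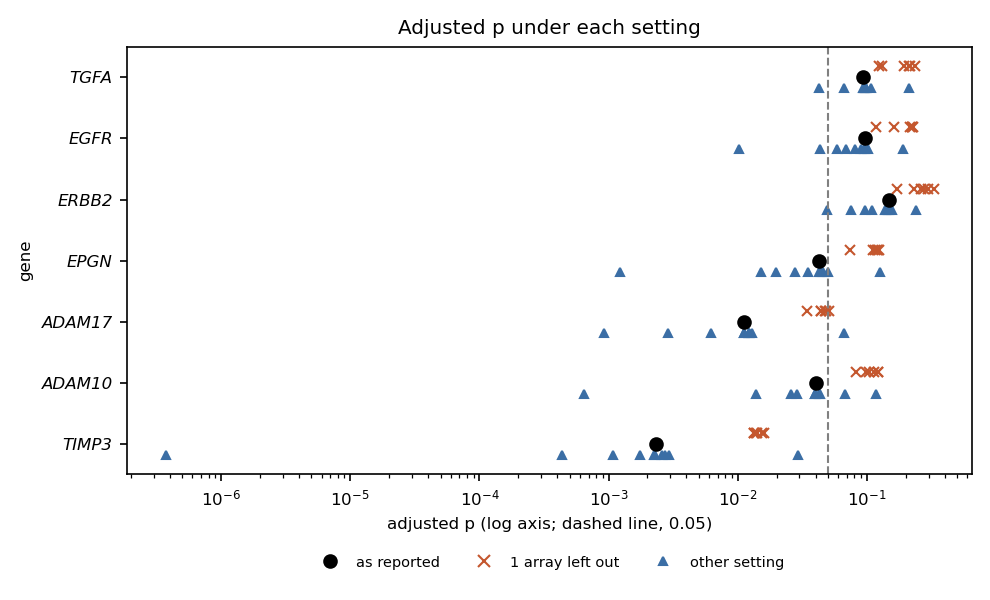
Adjusted p (log axis, dashed line at 0.05) of 7 genes as reported (circle), with 1 array left out (crosses) and under the other settings (triangles). TIMP3 stays left of the line throughout, EPGN and ADAM10 cross it whenever an array is left out, and TGFA, EGFR and ERBB2 lie left of it under 1 or 2 settings each.

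The proteases that release the ligands and the proteins that steer or inhibit them were listed as 14 genes, of which 12 were measured. In DED 2 of them rose, ADAM17 and ADAM10, 1 fell, TIMP3, and 9 did not pass the test, and the list median was -0.03. Among all probe sets 4.41% passed as higher and 2.69% as lower. ADAM17, the sheddase of TGFA, AREG, HBEGF and EREG, read 7.13, 7.15 and 7.20 on the naive and 7.51, 7.58 and 7.53 on the DED arrays. All DED arrays stood above all naive arrays. ADAM17 rose 1.30-fold (difference 0.38, SE 0.06; limma, adjusted p = 0.0111), and without naive replicate 2 the adjusted p was 0.0505.

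ADAM10, which releases EGF and BTC in mouse cells, read 9.36, 9.42 and 9.39 in naive and 9.61, 9.70 and 9.67 in DED conjunctiva, without overlap. It rose 1.21-fold (difference 0.27, SE 0.06; limma, adjusted p = 0.0400), and its adjusted p was 0.0820 to 0.121 with any 1 array left out. TIMP3, the matrix-bound inhibitor of ADAM17, read 11.19, 11.13 and 11.15 in naive and 10.61, 10.59 and 10.60 in DED conjunctiva. The groups were far apart relative to their spread. TIMP3 fell by 0.56 on the log2 scale (SE 0.05; limma, adjusted p = 0.00232) and passed under all 16 alternatives. RHBDF1, which carries ADAM17 to the cell surface, did not pass, with a difference of -0.06 (SE 0.08; limma, adjusted p = 0.737), and neither did ADAM15, a further membrane protease, at -0.28 (SE 0.07; adjusted p = 0.0721).

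Leukocytes also carry ADAM17 and ADAM10, and 13 of 16 leukocyte markers were higher and 0 lower in DED, with a list mean of 7.03 to 7.14 on the naive and 7.72 to 7.73 on the DED arrays. Among them were CD14 (difference 1.13), PTPRC (1.11), ITGAM (1.11) and the B cell gene MS4A1 (1.00). The T cell genes of the list differed. CD4 was higher by 0.71 (limma, adjusted p = 0.0163, and up to 0.0593 with an array left out). CD2 at 0.32 (adjusted p = 0.237) and CD3E at 0.00 (SE 0.11; limma, adjusted p = 0.989) did not pass. Of 9 neutrophil markers 5 were higher, with S100A8 (1.89), CXCR1 (1.37) and CXCR2 (1.20) at the top, and 1 was lower, LTF (-1.54), which is also on the gland list. Fibroblasts make TIMP3, and of 9 fibroblast markers 3 were higher, LUM (0.36), COL3A1 (0.30) and COL1A1 (0.29), and 2 were lower, with THY1 at -0.38. With single arrays left out, the adjusted p reached 0.0692 for LUM, 0.0869 for COL3A1 and 0.0905 for COL1A1. Their part in the values of the proteases and TIMP3 was not tested.

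Proteins that restrain the receptors, among them ubiquitin ligases, phosphatases and the Sprouty and LRIG families, were measured as 27 of 28 listed genes. In DED 0 rose, 1 fell and 26 did not pass, with a list median of -0.02. Over all probe sets 4.41% passed as higher and 2.69% as lower. LRIG3, a relative of LRIG1, which promotes the degradation of EGFR, read 8.62, 8.54 and 8.49 on the naive and 8.28, 8.30 and 8.25 on the DED arrays. The groups did not overlap, and LRIG3 fell by 0.27 on the log2 scale (SE 0.06; limma, adjusted p = 0.0459). Without any 1 array the adjusted p was 0.0768 to 0.129. LRIG1 itself had a difference of -0.13 (SE 0.06; limma, adjusted p = 0.246) and ERRFI1, a direct inhibitor of the EGFR kinase, -0.07 (SE 0.06; adjusted p = 0.577).

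Of 42 listed adaptors and kinases below the receptors 29 were measured, and 1 rose, 1 fell and 27 did not pass. Beside these counts, 4.41% of all probe sets passed as higher and 2.69% as lower. MAPK3, the kinase ERK1, read 9.99, 10.01 and 10.00 in naive and 9.78, 9.71 and 9.69 in DED conjunctiva, and it fell by 0.27 on the log2 scale (SE 0.06; limma, adjusted p = 0.0355). NRAS, a RAS protein, read 10.25, 10.19 and 10.18 on the naive and 10.50, 10.43 and 10.49 on the DED arrays, and it rose by 0.27 (SE 0.06; limma, adjusted p = 0.0409). Neither gene overlapped between the groups. With any 1 array left out the adjusted p was 0.0727 to 0.112 for MAPK3 and 0.0849 to 0.128 for NRAS, and with each array centred on its median NRAS did not pass. The adaptor GAB1 did not pass, at -0.25 (SE 0.06; limma, adjusted p = 0.0585).

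Genes whose transcription ERK signalling drives were measured as 19 of 21, of which 1 rose, 0 fell and 18 did not pass (list median 0.03). Among all probe sets 4.41% passed as higher and 2.69% as lower. The gene that rose was FOS, a subunit of the transcription factor AP-1, which many signals besides ERBB induce. It read 6.68, 6.66 and 6.55 in naive and 7.17, 7.13 and 7.18 in DED conjunctiva, 1.44-fold higher (difference 0.53, SE 0.06; limma, adjusted p = 0.00455), and passed under all 16 alternatives. The transcription factor ETV1 had a difference of -0.56 (SE 0.13; limma, adjusted p = 0.0510) and did not pass. The phosphatase DUSP6, which ERK induces and which switches ERK off, had a difference of 0.20 (SE 0.07; adjusted p = 0.166), and its relative DUSP4 one of -0.22 (SE 0.10; adjusted p = 0.260).

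**Figure D4:**
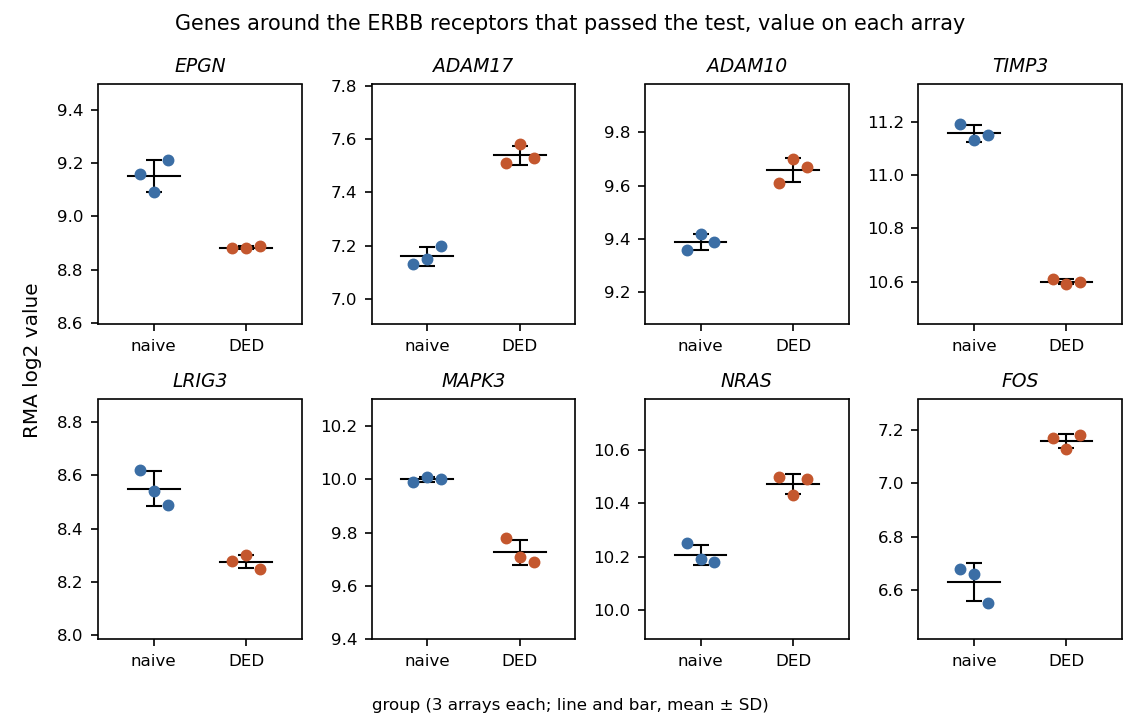
RMA log2 value on each of the 3 naive and 3 DED arrays for the 8 genes around the ERBB receptors that passed an adjusted p under 0.05, with mean and SD. EPGN, TIMP3, LRIG3 and MAPK3 are lower and ADAM17, ADAM10, NRAS and FOS higher in DED, without overlap of the groups.

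**Figure D5:**
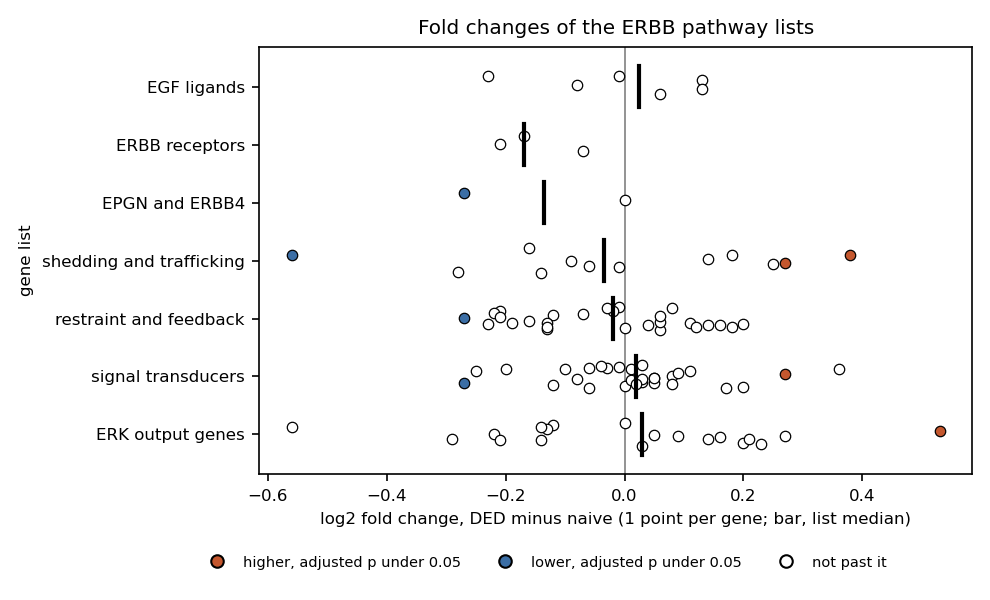
Log2 fold change (DED minus naive, x axis) of each measured gene of the ligand, receptor and pathway lists (y axis); filled points passed an adjusted p under 0.05 and bars are list medians. Points of the shedding, restraint, transducer and ERK output lists lie on both sides of 0. EPGN lies left of 0 with ERBB4 at 0.00, and the 3 receptor points all lie left of 0.

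Markers of further cell types were read on the same arrays, where 4.41% of all probe sets passed as higher and 2.69% as lower. Of 7 endothelial markers 2 were higher, VWF (0.87) and PECAM1 (0.78), and 0 lower. Of 7 adipocyte markers 3 were lower, FABP4 (-0.81), LPL (-0.76) and LIPE (-0.39), and 1 was higher, ADIPOQ (0.35), and with an array left out the adjusted p reached 0.0544 for LIPE and 0.0994 for ADIPOQ. In the list of lacrimal and other exocrine glands, tissue that supplies EGF to the tears, 3 of 7 were lower, among them PIP (-4.63) and ELAPOR1 (-1.70), and 3 were higher, with DMBT1 at 0.37. Skeletal muscle genes numbered 0 of 7 past the test, with the largest difference at -0.51 for TNNC2 (limma, adjusted p = 0.120). At an unadjusted p under 0.05 in limma 5 were lower, against 10.9% of all probe sets. Without overlap of the groups 5 were lower, against 14.5%. Of 15 genes of the proximal tubule of the kidney 12 were higher and 0 lower, among them SLC13A1 (1.23), CUBN (1.20), FABP1 (1.03) and LRP2 (1.02). The part of these shifts in the values of the ligands and receptors was not tested.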

How the data were processed

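Conjunctival RNA was hybridized to Affymetrix Rabbit Gene 1.0 ST arrays, 3 naive and 3 DED. The authors made the deposited log2 values with the Robust Multi-chip Analysis (RMA) algorithm in the Transcriptome Analysis Console, version not given in the sources used here. RMA corrects the background, gives all arrays the same distribution and summarises the probes of a transcript, so a change common to all transcripts cannot be seen and small signals are compressed. The deposited records and the paper differ in the number of animals pooled per array. The p-values rest on differences among these pools, which may in part be technical.

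DED minus naive was fitted with limma 3.58.1 in R 4.3.3 over all 23364 probe sets, with prior degrees of freedom of 2.55. The platform annotation gave the symbols (15795 probe sets with 1 symbol, 397 with several, 7172 not listed here), and all 9 members were found by Entrez identifier in the RefSeq table of mOryCun1.1. Where a gene had several probe sets, that with the highest mean was used. The members and the gene lists were chosen with earlier results of these data known. Named were all members, EPGN and ERBB4, and in each list up to 4 genes past the threshold with the largest differences, or the 1 largest where none passed. RHBDF1, ADAM15, LRIG1, ERRFI1, GAB1, ETV1, DUSP4, DUSP6, EPCAM, PAX6, KLF5, CD3E, CD4, CD2 and EDNRB were added after their values had been seen. PPP1R1A, CLDN10, PMP22 and LYZ were added likewise. The same holds for the chemokines and for PARM1 and MTHFD2L of the closing observations.

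The statistics were tested on simulated data. Alternatives changed the moderation (intensity trend, robust), the test (one-way analysis of variance, as in the methods), the probe sets (30% dimmest left out, those with 1 symbol, or averaged per gene), the scaling (quantiles again, or each array centred on its median), the weighting of arrays and the samples (each array left out, or replicate number as a block). Python 3.11.15, pandas 2.3.3, numpy 2.4.6, scipy 1.17.1 and matplotlib 3.10.9 were used for summaries, the exact permutation tests and figures.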

Additional observations from a re-analysis of the deposited data

How the results depend on the processing

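The number of members past the threshold was 0 higher under all 16 alternatives. It was 2 lower, in place of 0, with an intensity trend in eBayes and without the 30% dimmest probe sets, and 0 lower under the others, the one-way analysis of variance included. Of 143 alternative values of single members 136 kept both direction and side of the threshold, 4 passed it and 3 changed sign. With 1 array left out the difference ran from -0.07 to 0.04 for EGF, -0.01 to 0.24 for AREG and -0.16 to 0.17 for ERBB4, all near 0 and none past the threshold. The replicate numbers did not pair the arrays, since the deviations of arrays with the same number correlated at -0.015, 0.024 and -0.057. Under a replicate block few degrees of freedom remain, and 0 members passed in either direction. Adjusted p was then 0.212 for TGFA, 0.191 for EGFR, 0.239 for ERBB2, 0.127 for EPGN, 0.0664 for ADAM17, 0.117 for ADAM10 and 0.0291 for TIMP3.

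Counts of the pathway lists moved by more than 1.5 times. Over all alternatives, shedding genes were 0 to 3 higher and 1 to 2 lower (2 and 1 as reported), restraint genes 0 to 4 lower (1), transducers 0 to 1 higher and 0 to 3 lower (1 and 1), ERK output genes 1 to 3 higher and 0 to 2 lower (1 and 0), and the pair EPGN and ERBB4 0 to 1 lower (1). Among marker lists, epithelial genes were 2 to 4 higher and 0 to 3 lower (3 and 0), goblet cell genes 1 to 3 higher and 0 to 3 lower (2 and 2), fibroblast genes 0 to 5 higher and 0 to 3 lower (3 and 2), neutrophil genes 3 to 5 higher (5), melanocyte genes 0 to 1 higher (1), adipocyte genes 0 to 1 higher and 1 to 3 lower (1 and 3), gland genes 0 to 3 higher (3), muscle genes 0 to 2 lower (0), Schwann cell genes 0 to 1 lower (0) and distal tubule genes 0 to 2 lower (0). The cause of these shifts was not tested. With 3 arrays a group the interval of a member reached 1.42-fold at the widest.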

Other observations

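BTC, AREG, EREG and EPGN are direct neighbours in the rabbit genome by the order of protein-coding genes in RefSeq (assembly mOryCun1.1), and beyond MTHFD2L they are followed by a run of CXC chemokine genes. Of 15 protein-coding genes from PARM1 to RASSF6, a stretch chosen after its values were seen, 13 were measured, and 4 rose and 1, EPGN, fell in DED (limma, adjusted p under 0.05). Over all probe sets 4.41% passed as higher and 2.69% as lower, and a stretch chosen in this way gives no test of its counts. CXCL8, which attracts neutrophils, read 5.53, 5.63 and 5.43 on the naive and 6.78, 6.91 and 6.74 on the DED arrays, 2.43-fold higher (limma, adjusted p = 4.61e-04). LOC100008716, in the same run of genes, had the largest difference of the stretch, with 7.52, 7.41 and 7.37 on the naive and 9.25, 9.25 and 9.20 on the DED arrays, 3.48-fold higher (adjusted p = 4.99e-05), and it passed under all 16 alternatives. PPBP, a chemokine of platelets, was 1.91-fold and GRO-A 1.26-fold higher (adjusted p = 0.0272 and 0.0185), and with 1 array left out the adjusted p reached 0.0928 and 0.0739. The intervals of BTC, AREG and EREG lay within 1.42-fold in either direction. AREG was among the 30% dimmest probe sets, and RMA compresses small signals. PARM1, which flanks BTC, had 3 DED values below all naive values at 1.12-fold lower (adjusted p = 0.161), and MTHFD2L, which flanks EPGN, likewise at 1.12-fold lower (adjusted p = 0.229).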
